A study of Mus musculus with 33 samples.

Results

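The genes described here control passage through the G1 phase of the cell cycle and were followed across blood progenitors of old mice: the D-type cyclins Ccnd1, Ccnd2 and Ccnd3, their kinase partner Cdk6, the Cip/Kip inhibitors Cdkn1a (p21) and Cdkn1b (p27), and the INK4 inhibitors Cdkn2a (p16Ink4a and p19Arf), Cdkn2b (p15), Cdkn2c (p18) and Cdkn2d (p19Ink4d). They were taken by symbol from the deposited count tables and make up 10 of 55376 listed genes. The rule uses no measured value, but the members were chosen with earlier results of these data known. All 10 had a row in every library.

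D-type cyclins are made in response to growth signals and bind CDK4 or CDK6. The active kinase phosphorylates the retinoblastoma protein and its relatives, which frees E2F factors to switch on the genes of DNA replication. INK4 proteins bind CDK4 and CDK6 and keep the cyclins off them, whereas p21 and p27 bind cyclin-kinase complexes and inhibit CDK2 in particular. p21 is a classical target of p53. Haematopoietic stem cells (HSCs) are mostly quiescent, their committed progeny divide often, and Cdkn2a is widely used as a marker of ageing and of senescent cells.

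The samples were RNA libraries of sorted marrow cells from male C57BL/6 mice, all old (24 to 29 months), and no library of a young mouse is analysed here. O-WT mice were untreated, O-NR mice drank nicotinamide riboside (NR, a precursor of NAD+) for 4 to 6 weeks, and O-NR-RC mice were examined 2 months after NR was withdrawn. Cohort 2 held 4 O-WT and 4 O-NR libraries of each of HSCs, common lymphoid progenitors (CLPs) and granulocyte-macrophage progenitors (GMPs), and cohort 1 held HSC libraries only, 2 for O-WT, 4 for O-NR, and for O-NR-RC 3. HSCs were gated as lineage-negative, cKit+, Sca1+, CD34-, Flk2- and CD150+ after cKit enrichment, and CLPs as lineage-negative cells positive for the IL-7 receptor and Flk2. One label field called the GMP libraries common myeloid progenitors, whereas their titles called them GMPs. The labels do not say that libraries came from separate mice, nor whether libraries of 3 cell types with the same number came from 1 mouse, so p-values measure the spread between libraries.

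Libraries held 8897256 to 23816042 counted reads in cohort 1 and 4792380 to 18213674 in cohort 2. Levels are given as CPM (reads scaled to a common library size by TMM), which corrects for a few abundant genes taking reads from the rest. The scaling was made within each cohort, so levels are not compared between cohorts. Summed CPM of 8 HSC markers was 1965 to 2745 in cohort 2 HSCs and 85.4 to 173 in CLPs and GMPs. In the same cohort 8 CLP markers reached 2098 to 4858 in CLPs and 126 to 187 elsewhere, and 8 GMP markers reached 16942 to 25147 in GMPs and 102 to 789 elsewhere. By these sums each cell type held the markers of its label, and none of these markers was at 0. Mpo alone reached 13646 to 20384 CPM in GMPs, and the GMP marker Irf8 overlapped between GMPs (109 to 409) and CLPs (116 to 251). In CLPs, 5 plasma and B cell markers summed to 361 to 801 CPM and 5 neutrophil markers to 10.2 to 163. Their part in the CLP values was not tested. Reads counted on 1732 olfactory and vomeronasal receptor genes, assumed as a group to be largely unused by these cells, served as an approximate background level for each library. Per kilobase of exon, these receptor genes stood at 1.14 to 2.00 CPM in cohort 1, and in cohort 2 at 0.278 to 0.699 in HSCs, 0.369 to 0.940 in CLPs and 0.211 to 0.391 in GMPs.

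The promoter sequences of 3 members are printed here as a description, and their relation to the levels was not tested. They are Cdk6 and Cdkn2c, which were higher in both progenitors than in HSCs, and Cdkn2a. The counts of Cdkn2a pool the transcripts of 2 start sites. Cdkn2c also has 2 annotated start sites, and only the first is printed. Each run is the 250 bases before an annotated RefSeq start site in GRCm38.p6, written 5′ to 3′ on the strand of the gene. Capitals mark matches, on either strand, to 6 searched motifs: the GC box motif GGGCGG, the box known from many promoters as CCAAT, the TATA box motif TATAAA, the E box motif CACGTG, and the E2F-type motifs TTTCCCGC and, as a second form, TTTGGCGC.
Cdk6, chr5:3343643-3343892, plus strand: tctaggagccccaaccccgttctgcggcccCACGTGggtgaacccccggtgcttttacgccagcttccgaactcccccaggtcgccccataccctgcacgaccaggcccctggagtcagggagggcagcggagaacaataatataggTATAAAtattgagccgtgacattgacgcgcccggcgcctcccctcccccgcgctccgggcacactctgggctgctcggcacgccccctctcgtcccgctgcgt
Cdkn2c, first start, chr4:109666757-109667006, minus strand: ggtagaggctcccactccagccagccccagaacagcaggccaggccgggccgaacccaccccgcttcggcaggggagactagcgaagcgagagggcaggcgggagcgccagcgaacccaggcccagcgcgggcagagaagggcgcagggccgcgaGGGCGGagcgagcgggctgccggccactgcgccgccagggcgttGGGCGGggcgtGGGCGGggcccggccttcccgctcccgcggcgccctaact
Cdkn2a, first start (p19Arf), chr4:89294620-89294869, minus strand: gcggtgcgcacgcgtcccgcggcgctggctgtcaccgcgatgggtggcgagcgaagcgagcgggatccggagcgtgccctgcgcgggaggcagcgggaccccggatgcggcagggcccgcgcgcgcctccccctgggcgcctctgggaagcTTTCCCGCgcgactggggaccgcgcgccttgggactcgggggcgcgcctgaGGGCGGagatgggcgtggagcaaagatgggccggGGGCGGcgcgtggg
Cdkn2a, second start (p16Ink4a), chr4:89282193-89282442, minus strand: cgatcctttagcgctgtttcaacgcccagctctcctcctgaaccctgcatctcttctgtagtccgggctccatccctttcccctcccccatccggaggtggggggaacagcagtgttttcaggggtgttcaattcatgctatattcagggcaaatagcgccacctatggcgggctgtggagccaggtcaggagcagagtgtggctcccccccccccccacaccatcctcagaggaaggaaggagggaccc
The Cdk6 window held 1 TATAAA, 1 CACGTG and 22 CpG dinucleotides, against a median of 6 CpG over 32851 mouse promoter windows, of which 12.4% held TATAAA and 6.02% held CACGTG. The printed Cdkn2c window held 3 GGGCGG, a motif present in 32.7% of all windows, and 29 CpG. The window of its second start held 6 CpG and no match to the 6 motifs. At Cdkn2a, the p19Arf window held 40 CpG, 2 GGGCGG and 1 TTTCCCGC (0.895% of all windows), and the p16Ink4a window held 7 CpG and no match to the 6 motifs. These matches describe the letters only. RefSeq windows were found for 8 of the 10 members, and Ccnd1 and Ccnd2 had none in the table.

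In untreated mice the members fell into those that were higher in progenitors (Cdk6, Cdkn2c), those that marked CLPs (Cdkn1a, Ccnd3), those that were highest in HSCs (Ccnd1, Cdkn1b), Cdkn2d, which was lower in CLPs than in HSCs, and Ccnd2, which was called in no comparison of cell types. Of the 10 genes, 8 passed the filter of more than 3 CPM in at least 4 libraries and were tested, while Cdkn2a and Cdkn2b were too low. With edgeR's quasi-likelihood test at an adjusted p below 0.05, 7 of these 8 differed between CLPs and HSCs of O-WT mice (4 higher, 3 lower), where 30.3% of all 20044 genes tested did. Between GMPs and HSCs 4 of 8 differed against 46.8% of all genes, and between GMPs and CLPs 3 of 8 against 62.1%. In O-NR mice the counts were 7 of 8 against 40.8% of all 18080 genes, 7 of 8 against 45.8%, and 3 of 8 against 49.3%. The members' share was thus above that of all genes between CLPs and HSCs in both treatments and between GMPs and HSCs in O-NR mice, near it between GMPs and HSCs in O-WT mice, and below it between GMPs and CLPs in both.

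**Figure D1:**
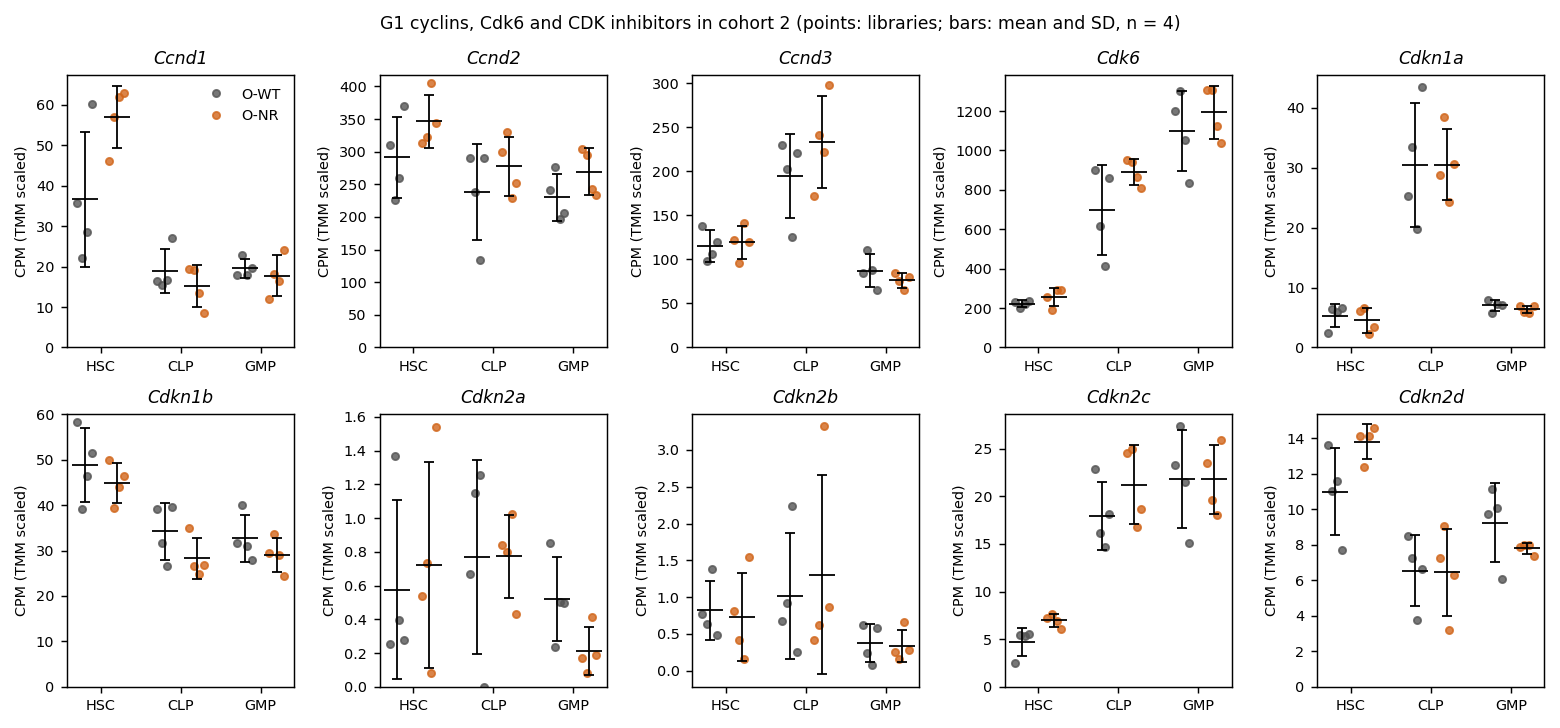
CPM (y axis, linear, a separate scale in each panel) of each of the 10 genes in the 24 libraries of cohort 2, by cell type and treatment (x axis). Points are libraries and bars give the mean and SD of 4 libraries. Cdk6 was at 189.7 to 292 CPM in every HSC library and at 414 or more in every CLP and GMP library, and Cdkn1a at 19.7 or more only in CLPs.

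Cdk6 (chr5:3341485-3531008, plus strand, mm10) was several times higher in both progenitors than in HSCs. In O-WT mice it was at 229, 199, 222 and 238 CPM in HSCs, at 903, 616, 414 and 859.8 in CLPs, and at 1201, 1302, 1054 and 836 in GMPs. After NR it was at 255, 189.7, 292 and 289 CPM in HSCs, at 951, 939.6, 865 and 811 in CLPs, and at 1306, 1307, 1125 and 1039 in GMPs. No HSC library overlapped a progenitor library in either treatment. In sorted populations a change in the share of cells that use a gene and a change in RNA per cell cannot be told apart. The log2 difference was 1.68 (SE 0.23, adjusted p = 3.26e-07) for O-WT CLPs and 2.29 (SE 0.23, adjusted p = 6.61e-10) for O-WT GMPs over HSCs. In O-NR mice it was 1.94 (SE 0.17, adjusted p = 8.39e-11) and 2.35 (SE 0.17, adjusted p = 1.38e-12). These 4 calls held under every alternative run.

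GMPs had more Cdk6 than CLPs, by 0.61 on the log2 scale in O-WT (SE 0.22, adjusted p = 0.0199) and 0.41 in O-NR (SE 0.16, adjusted p = 0.0341), but this smaller step was less stable. The CLP and GMP libraries overlapped in O-WT mice and did not overlap in O-NR mice. With upper quartile scaling it was 0.19 (adjusted p = 0.266) and 0.09 (adjusted p = 0.455). With the receptor-gene level of each library as a covariate, an alternative chosen after seeing the data, it was 0.06 (adjusted p = 0.863) and 0.08 (adjusted p = 0.785). The O-WT CLP library with the lowest Cdk6, replicate 3, also had the highest receptor-gene level of cohort 2, 0.940 CPM per kilobase. Without it the O-WT step was 0.39 (adjusted p = 0.149), and without CLP replicate 2 it was 0.57 (adjusted p = 0.0633). The O-NR step missed the threshold without CLP replicate 1 or 4 or GMP replicate 1 or 2, at 0.33 to 0.45 with adjusted p of 0.0514 to 0.0726.

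Among the kinases, Cdk6 made up a larger share in progenitors. Counted per kilobase of exon, so that genes of unequal length can be set side by side, Cdk6 was at 17.1 CPM per kilobase in HSCs, 56.8 in CLPs and 81.9 in GMPs, and Cdk4 at 23.5, 45.3 and 57.9. Cdk6 was therefore 42.1% ± 3.39 (SD, n = 8) of the sum of both for HSCs, 55.9% ± 3.80 for CLPs and 58.5% ± 2.12 for GMPs. The HSC libraries (37.0 to 47.3%) did not overlap either progenitor (50.8 to 61.3%), whereas CLPs and GMPs overlapped. These shares are descriptions with no test.

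Ccnd3 (chr17:47505051-47599691, plus strand) was the D cyclin that set CLPs apart. In O-WT mice it was at 138, 97.8, 106 and 119.8 CPM in HSCs, at 229.6, 203, 125 and 221 in CLPs, and at 84.1, 111, 87.9 and 65.7 in GMPs. The O-NR libraries stood at 122, 95.9, 142 and 119.6 CPM in HSCs, at 172, 242, 222 and 299 in CLPs, and at 85.2, 75.2, 65.5 and 80.4 in GMPs. Every CLP library was above every GMP library, and CLP replicate 3 of O-WT alone fell within the range of HSCs. CLPs exceeded HSCs by 0.79 on the log2 scale in O-WT (SE 0.19, adjusted p = 0.00138) and 1.11 in O-NR (SE 0.17, adjusted p = 3.44e-06). GMPs were lower than CLPs by a log2 difference of -1.21 (SE 0.19, adjusted p = 5.67e-06) and -1.62 (SE 0.17, adjusted p = 1e-08). GMPs were also lower than HSCs in O-NR mice (-0.51, SE 0.17, adjusted p = 0.0129), a call that did not hold without HSC O-NR replicate 3 (-0.42, adjusted p = 0.0511), and in O-WT mice the value was -0.42 (adjusted p = 0.064), called with upper quartile scaling (-0.62, adjusted p = 0.00023). The O-WT difference between CLPs and HSCs missed the threshold when low genes were filtered at 1 CPM (adjusted p = 0.13) or not at all (adjusted p = 0.139). Ccnd3 shares 361 exon bases with Bysl on the opposite strand, and the strand setting of the counting was not given in the sources used here, so reads of both cannot be told apart there.

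Ccnd1 (chr7:144929931-144939925, minus strand) was highest in HSCs. In O-WT mice it was at 35.6, 22.2, 28.6 and 60.3 CPM in HSCs, at 16.3, 15.5, 16.6 and 27.0 in CLPs, and at 18.0, 23.0, 17.9 and 19.7 in GMPs. After NR it was at 46.1, 57.1, 62.0 and 62.9 CPM in HSCs, at 19.3, 19.3, 13.5 and 8.44 in CLPs, and at 12.02, 18.2, 16.5 and 24.2 in GMPs. The O-NR HSC libraries lay far above all progenitors, whereas the lowest O-WT HSC library overlapped both. The log2 difference from HSCs was -0.92 in O-WT for CLPs (SE 0.22, adjusted p = 0.00155) and for GMPs (SE 0.22, adjusted p = 0.000891). After NR it was -1.76 for CLPs (SE 0.21, adjusted p = 7.80e-08) and -1.54 for GMPs (SE 0.21, adjusted p = 4.02e-07). The O-WT calls rested on HSC replicate 4, without which the values were -0.57 (adjusted p = 0.0575) and -0.45 (adjusted p = 0.103). Ccnd1 shares 1100 exon bases with the gene LTO1 on the opposite strand, which collected 7940 reads over all libraries against 12408 for Ccnd1.

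Ccnd2 (chr6:127125162-127152193, minus strand) had the highest mean level per kilobase of the D cyclins in every cell type and was called in none of the 6 comparisons. Its CPM was 226 to 369 in O-WT HSCs, 133 to 291 in O-WT CLPs and 197 to 276 in O-WT GMPs, and 314 to 405, 229 to 329.8 and 233 to 305 in O-NR mice. The O-WT GMPs differed from HSCs by -0.36 on the log2 scale (adjusted p = 0.153) and the CLPs by -0.26 (adjusted p = 0.368). Other settings called Ccnd2 lower in GMPs. With upper quartile scaling it was -0.54 against HSCs (adjusted p = 0.00924) and -0.51 against CLPs (adjusted p = 0.0116) in O-WT, and -0.47 (adjusted p = 0.000349) and -0.37 (adjusted p = 0.00335) in O-NR. With the receptor-gene level as a covariate, Ccnd2 was lower in GMPs than in HSCs by -0.73 (adjusted p = 8.53e-05) in O-WT and -0.38 (adjusted p = 0.00177) in O-NR, and lower than in CLPs by -0.69 (adjusted p = 0.00316) and -0.41 (adjusted p = 0.0178). In O-NR the difference from HSCs was also called without CLP replicate 4 (-0.36, adjusted p = 0.0258) and with only the 2 groups in the fit (-0.27, adjusted p = 0.0473). The receptor-gene level was itself lowest in GMPs, so the covariate and the cell type overlap.

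The share of Ccnd3 and, by a narrow margin, that of Ccnd2 set CLPs apart from both other cell types, while the total D cyclin RNA overlapped. HSCs had a summed level of the 3 cyclins of 57.2 ± 10.5 CPM per kilobase, CLPs of 55.4 ± 10.8 and GMPs of 39.8 ± 4.83 (SD, n = 8 each), with overlapping ranges. Ccnd2 made up 59.3% of it for HSCs, 49.1% for CLPs and 66.4% for GMPs. Its shares in HSC libraries (57.6 to 60.4%) overlapped those in GMPs (60.2 to 72.5%), and all CLP libraries lay below both at 42.8 to 57.4%. Ccnd3 made up 44.1% ± 5.62 in CLPs against 23.8% ± 3.40 in HSCs and 23.5% ± 3.20 in GMPs, and no CLP library (35.3 to 54.4%) overlapped another cell type (19.1 to 28.8%). Ccnd1 made up 16.9% ± 3.67 in HSCs, 10.1% ± 2.30 in GMPs and 6.79% ± 2.50 in CLPs. Here GMPs (5.72 to 13.2%) overlapped both HSCs (11.8 to 21.1%) and CLPs (2.86 to 11.1%). The shares pool O-WT and O-NR libraries and were not tested. In cohort 1 HSCs the shares of Ccnd1, Ccnd2 and Ccnd3 were 18.7%, 56.3% and 25.0%, although those libraries differed widely in level.

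**Figure D2:**
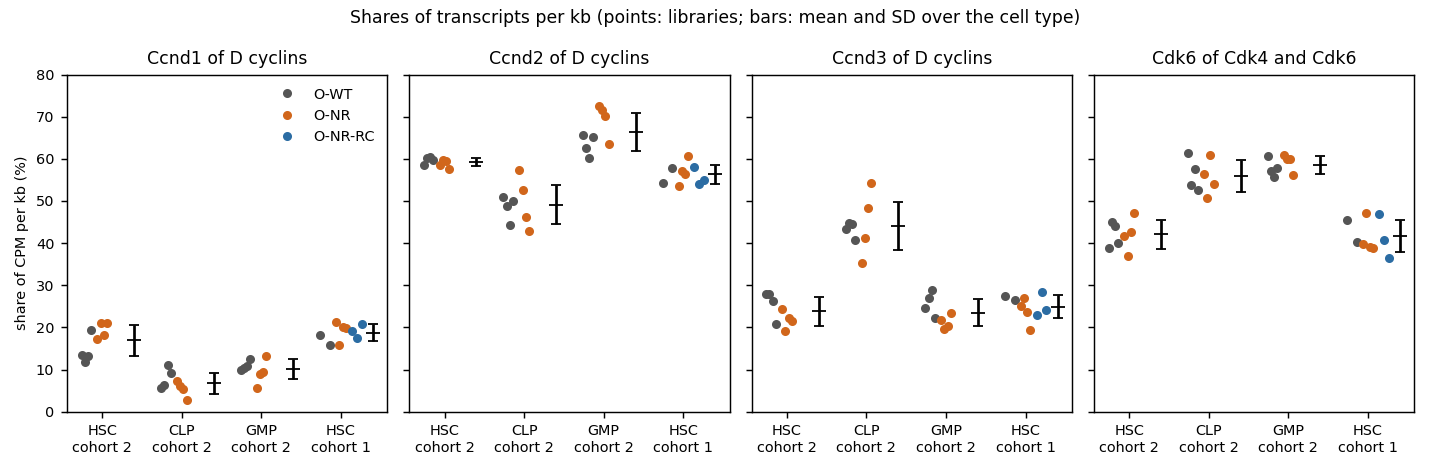
Share (y axis, percent of CPM per kilobase) of Ccnd1, Ccnd2 and Ccnd3 in the sum of the 3 D cyclins, and of Cdk6 in the sum of Cdk4 and Cdk6, by cell type (x axis). Points are libraries and bars give the mean and SD over a cell type. In cohort 2, CLPs stood apart by Ccnd3 at 35.3 to 54.4% and narrowly by Ccnd2 at 42.8 to 57.4%, and HSCs by Cdk6 at 37.0 to 47.3%.

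Cdkn1a (chr17:29090976-29100727, plus strand), the p53 target p21, was highest in CLPs. In O-WT mice it was at 2.39, 6.41, 5.94 and 6.50 CPM in HSCs, at 25.3, 33.4, 19.7 and 43.5 in CLPs, and at 7.88, 5.72, 7.33 and 7.12 in GMPs. In O-NR mice it was at 6.02, 6.59, 2.23 and 3.39 CPM in HSCs, at 28.7, 38.5, 24.3 and 30.5 in CLPs, and at 6.94, 5.87, 5.68 and 6.87 in GMPs. The lowest CLP library was above every HSC and GMP library. CLPs exceeded HSCs by 2.55 on the log2 scale in O-WT (SE 0.27, adjusted p = 2.11e-09) and 2.91 in O-NR (SE 0.25, adjusted p = 7.31e-11). GMPs were lower than CLPs by a log2 difference of -2.17 (SE 0.26, adjusted p = 5.13e-08) and -2.27 (SE 0.24, adjusted p = 9.3e-09). GMPs and HSCs were close, with 0.38 in O-WT (adjusted p = 0.231) and 0.64 in O-NR (SE 0.25, adjusted p = 0.0377). The O-NR call was lost under 5 other settings, at adjusted p of 0.0675 to 0.282, and without HSC replicate 3 or 4, CLP replicate 4 or any 1 of the 4 GMP libraries, at 0.39 to 0.66 with adjusted p of 0.0566 to 0.20.

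Cdkn1b (chr6:134920401-134925513, plus strand), which encodes p27 and is associated with quiescence, was moderately higher in HSCs. Its CPM was 39.1 to 58.4 in O-WT HSCs, 26.7 to 39.6 in O-WT CLPs and 28.0 to 40.0 in O-WT GMPs, and 39.4 to 49.9, 24.8 to 34.9 and 24.3 to 33.6 in O-NR mice. The HSC libraries of O-NR mice did not overlap the progenitors, and those of O-WT mice did at their lowest. The log2 difference from HSCs in O-WT was -0.48 for CLPs (SE 0.16, adjusted p = 0.0261) and -0.60 for GMPs (SE 0.16, adjusted p = 0.00318), and in O-NR it was -0.52 (SE 0.15, adjusted p = 0.00736) and -0.48 (SE 0.15, adjusted p = 0.00916). The O-NR calls were lost only when a change of more than 1.5-fold was also required. The O-WT calls were fragile. With RLE scaling they were -0.42 (adjusted p = 0.155) and -0.36 (adjusted p = 0.187). The call for CLPs was lost without HSC replicate 1 or 4, CLP replicate 2 or 3 or GMP replicate 1 (-0.32 to -0.49, adjusted p of 0.0536 to 0.243). That for GMPs was lost without HSC replicate 1 or 4 or GMP replicate 1, 3 or 4 (-0.37 to -0.48, adjusted p of 0.0568 to 0.0926).

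Cdkn2c (chr4:109660876-109667189, minus strand) encodes an INK4 inhibitor of CDK6 and, like Cdk6 itself, was higher in both progenitors. In O-WT mice it was at 2.48, 5.47, 5.35 and 5.52 CPM in HSCs, at 22.8, 16.1, 14.7 and 18.2 in CLPs, and at 23.3, 27.4, 21.5 and 15.1 in GMPs. In O-NR mice it was at 7.19, 7.64, 6.94 and 6.06 CPM in HSCs, at 24.5, 24.9, 16.7 and 18.6 in CLPs, and at 23.5, 19.6, 18.0 and 25.9 in GMPs. No HSC library overlapped a progenitor library, and CLPs and GMPs overlapped each other. The log2 difference from HSCs was 1.96 for CLPs (SE 0.24, adjusted p = 7.49e-08) and 2.19 for GMPs (SE 0.24, adjusted p = 4.97e-09) in O-WT, and 1.76 (SE 0.19, adjusted p = 9.68e-09) and 1.79 (SE 0.19, adjusted p = 4.5e-09) in O-NR. These 4 calls held under every alternative run.

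Cdkn2d (chr9:21288410-21291407, minus strand), the other INK4 gene measured well in all cells, had its highest mean in HSCs and its lowest in CLPs. Its CPM was 7.69 to 13.6 in O-WT HSCs, 3.77 to 8.50 in O-WT CLPs and 6.04 to 11.1 in O-WT GMPs, and 12.3 to 14.6, 3.19 to 9.02 and 7.34 to 7.99 in O-NR mice. Only in O-NR mice were the HSC libraries above all progenitors. There the log2 difference from HSCs was -0.94 for CLPs (SE 0.25, adjusted p = 0.00312) and -0.68 for GMPs (SE 0.24, adjusted p = 0.0231). In O-WT mice it was -0.71 for CLPs (SE 0.27, adjusted p = 0.0469) and -0.27 for GMPs, the latter not called. The O-WT call for CLPs sat at the threshold and was lost under 7 other settings (adjusted p of 0.051 to 0.167) and without HSC replicate 1, 2 or 3, CLP replicate 2, 3 or 4 or GMP replicate 1, 2 or 3 (-0.45 to -0.77, adjusted p of 0.0501 to 0.229).

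**Figure D3:**
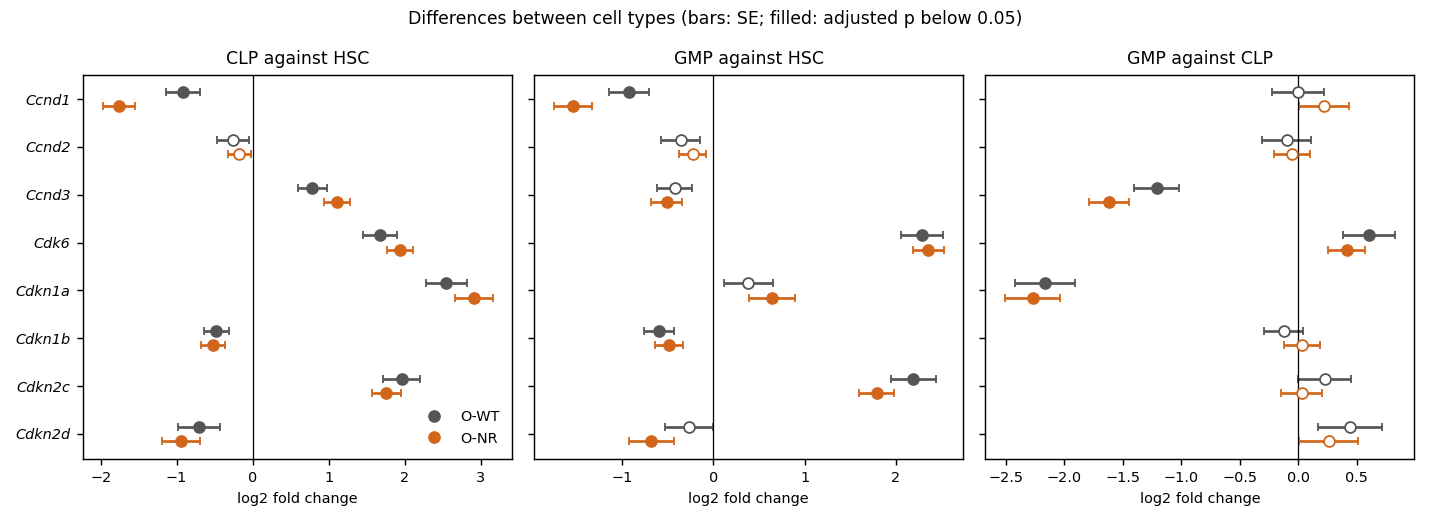
Log2 difference and SE (x axis) of 8 genes (y axis) between cell types of cohort 2, in separate panels for CLP against HSC, GMP against HSC and GMP against CLP, with O-WT and O-NR side by side. Filled points had an adjusted p below 0.05. Cdk6 and Cdkn2c lay to the right of 0 in both comparisons with HSCs, Ccnd1 and Cdkn1b to the left, and Ccnd2 was filled in no panel.

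Cdkn2a (chr4:89274471-89294653, minus strand) and Cdkn2b (chr4:89306299-89311039, minus strand), the neighbouring INK4 genes tied to ageing, could not be told from the receptor genes at this depth in cohort 2. Over the 24 libraries Cdkn2a collected 0 to 15 reads and Cdkn2b 1 to 26. Per kilobase, the median ratio of Cdkn2a to the receptor genes of the same library was 0.905 for HSCs, 1.17 for CLPs and 0.980 for GMPs, and Cdkn2a was above them in 4, 6 and 3 of 8 libraries. For Cdkn2b the ratio was 1.34, 1.07 and 0.729, and it was above them in 4, 4 and 3 of 8 libraries. In cohort 1 Cdkn2a collected 27 to 56 reads (1.77 to 3.01 CPM) and Cdkn2b 27 to 53 (1.87 to 3.95 CPM). The receptor genes there stood at 1.14 to 2.00 CPM per kilobase. The median ratios of 1.28 and 1.23 were thus again close to the receptor genes, although 8 of 9 libraries were above them for each. By the same measure Cdkn1a stood at 2.81 times the receptor genes in cohort 2 HSCs, 6.11 in GMPs and 15.4 in CLPs, but at 1.17 in cohort 1 HSCs. Its level in cohort 1, 6.37 to 8.14 CPM, thus lay close to that of the receptor genes.

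Ranked per kilobase within a cell type, Ccnd2 led in cohort 2 HSCs at 33.9 CPM per kilobase, followed by Cdk6 at 17.1, Ccnd3 at 13.4, Cdkn1b at 10.3, Ccnd1 at 9.95, Cdkn2d at 7.87, Cdkn2c at 2.17 and Cdkn1a at 1.39. Neighbours from Cdk6 to Cdkn2d had overlapping library ranges, as did Cdkn2c and Cdkn1a. In CLPs the order was Cdk6 at 56.8, Ccnd2 at 27.4, Ccnd3 at 24.4, Cdkn1a at 8.58, Cdkn2c at 7.29, Cdkn1b at 6.87, Cdkn2d at 4.12 and Ccnd1 at 3.61. In GMPs it was Cdk6 at 81.9, Ccnd2 at 26.5, Ccnd3 at 9.33, Cdkn2c at 8.11, Cdkn1b at 6.78, Cdkn2d at 5.41, Ccnd1 at 3.97 and Cdkn1a at 1.88. In CLPs Ccnd3 and Cdkn1a did not overlap and all other neighbours did. In GMPs Cdk6 and Ccnd2, Ccnd2 and Ccnd3, and Ccnd1 and Cdkn1a did not overlap. Cdkn1a thus led the inhibitors in CLPs by its mean and stood last of these 8 genes in the other cell types.

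No member had an adjusted p below 0.05 in any comparison of O-NR with O-WT. One of the study's own cutoffs, an unadjusted p below 0.01, was used for the counts. In HSCs of cohort 2, 0 of 8 members passed it, against 0.726% of all 17364 genes (126 genes by edgeR, with 667 at p below 0.05, 1 of them a member). In CLPs 0 of 8 passed against 0.412% of all genes, with no member among the 639 genes at p below 0.05. DESeq2 also gave 0 members in both. In GMPs 1 of 8 passed against 0.986% of all genes. Summed CPM of 5 plasma and B cell markers was 44.8 to 729.7 in O-WT and 8.22 to 114 in O-NR HSCs of cohort 2, and their part in the HSC values was not tested.

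Among the HSC comparisons of O-NR with O-WT, Ccnd1 in cohort 2 was the member that came nearest to the unadjusted cutoff of 0.01. Its 4 O-NR libraries (46.1 to 62.9 CPM) were higher on average than the 4 O-WT libraries (22.2 to 60.3), at 57.0 ± 7.70 against 36.7 ± 16.7 CPM (SD, n = 4 each), and O-WT replicate 4 overlapped the O-NR range. The log2 difference was 0.59 (SE 0.22, unadjusted p = 0.0154, adjusted p = 0.995 by edgeR). It passed 0.01 with the receptor-gene level as a covariate (0.55, unadjusted p = 0.00568, adjusted p = 0.405), with a filter at 1 CPM (0.62, unadjusted p = 0.00437), without a filter (0.62, unadjusted p = 0.000716) and with all 24 libraries in one fit (0.63, unadjusted p = 0.00924). It also passed without O-WT replicate 4 (0.95, unadjusted p = 1.16e-05, adjusted p = 0.0851) or O-NR replicate 1 (0.69, unadjusted p = 0.00567), and was above 0 in all 17 alternatives. The share of Ccnd1 among D cyclins was 14.5% in O-WT (11.8 to 19.5%) and 19.4% in O-NR (17.2 to 21.1%). In CLPs the value pointed the other way, at -0.35 (unadjusted p = 0.16, adjusted p = 0.9996 by edgeR), and the difference between the NR effects in HSCs and CLPs was 0.95 (SE 0.34, unadjusted p = 0.00715, adjusted p = 0.9999 by edgeR). It was the 1 of 8 members past an unadjusted 0.01 there, against 0.421% of all 22573 genes. It fell below that cutoff with RLE scaling (0.90, unadjusted p = 0.0175), with a filter at 1 CPM (0.86, unadjusted p = 0.0232) and with DESeq2 (0.90, unadjusted p = 0.0359). Leaving out HSC O-WT replicate 1, 2 or 3, HSC O-NR replicate 3 or 4, CLP O-WT replicate 4 or CLP O-NR replicate 3 or 4 also ended the call, at 0.70 to 0.96 with unadjusted p of 0.0101 to 0.0465. Between HSCs and GMPs the difference for Ccnd1 was 0.78 (SE 0.33, unadjusted p = 0.0235, adjusted p = 0.9999 by edgeR), and 0 of 8 members passed 0.01 against 0.133% of all genes, with 321 genes and 1 member at an unadjusted p below 0.05. Ccnd1 passed there without HSC O-WT replicate 4 (1.11, unadjusted p = 0.0011) or GMP O-NR replicate 4 (0.98, unadjusted p = 0.00667). Between CLPs and GMPs 0 of 8 passed against 0.439%, with 803 genes and no member at an unadjusted p below 0.05. DESeq2 gave 0 members in both.

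Cdkn2c in HSCs was the other member to look at. The O-NR libraries (6.06 to 7.64 CPM) did not overlap the O-WT libraries (2.48 to 5.52), and O-WT replicate 1 lay far below the other O-WT libraries. The share of all genes without overlap was not counted. The log2 difference was 0.51 (SE 0.32, unadjusted p = 0.128 by edgeR). With the receptor-gene level as a covariate it was 0.63 (unadjusted p = 0.0201, adjusted p = 0.549 by edgeR). Ccnd2 in GMPs was the only member past 0.01, higher in O-NR by 0.28 on the log2 scale (SE 0.09, unadjusted p = 0.00749, adjusted p = 0.905 by edgeR). Its libraries overlapped, at 241, 276, 197 and 206 CPM in O-WT and 305, 295, 243 and 233 in O-NR. The call was lost without GMP O-WT replicate 1 or 3 or O-NR replicate 1, 2 or 3 (0.21 to 0.30, unadjusted p of 0.0111 to 0.034). Cdk6 in GMPs was at 0.18 (unadjusted p = 0.0505) and passed without O-NR replicate 4 (0.24, unadjusted p = 0.00971). In HSCs Cdkn2d was at 0.29 (unadjusted p = 0.138), Cdk6 at 0.16 (unadjusted p = 0.217), Cdkn1b at -0.16 (unadjusted p = 0.175), Cdkn1a at -0.27 (unadjusted p = 0.53) and Ccnd3 at 0.01. In CLPs Cdk6 was at 0.33 (unadjusted p = 0.221) and Cdkn1b at -0.31 (unadjusted p = 0.111).

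**Figure D4:**
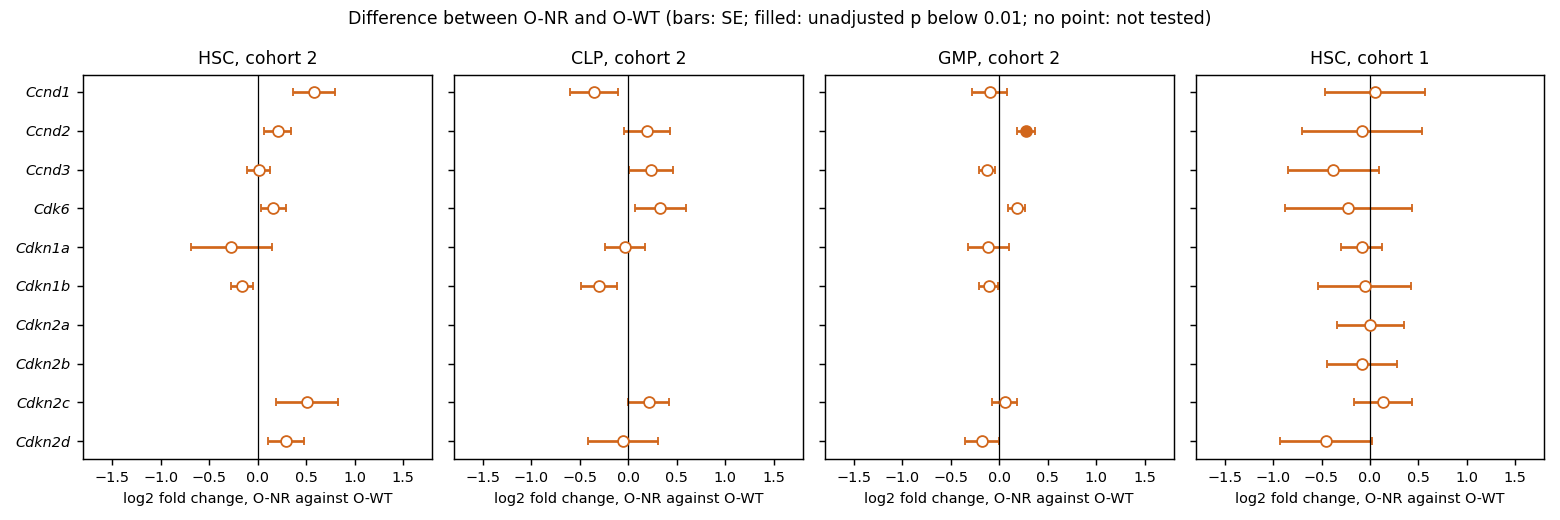
Log2 difference and SE (x axis) of each gene (y axis) between O-NR and O-WT libraries in HSCs, CLPs and GMPs of cohort 2 and in HSCs of cohort 1. Filled points had an unadjusted p below 0.01. One point was filled, Ccnd2 in GMPs at 0.28, and Ccnd1 in HSCs of cohort 2 stood at 0.59.

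Cohort 1 gave no member past 0.01 for O-NR against O-WT (0.048% of all 33350 genes), for O-NR-RC against O-NR (0.036%) or for O-NR-RC against O-WT (0.078%), with 182, 97 and 265 genes and no member at an unadjusted p below 0.05 by edgeR. DESeq2 gave 0 members in each. The spread within its groups was wide. Cdk6 was at 241 and 189.9 CPM in O-WT, at 111, 135, 212 and 280.2 in O-NR, and at 411, 100.3 and 86.3 in O-NR-RC. Ccnd2 was at 275 and 220.3 CPM in O-WT, at 136, 140.3, 277 and 382 in O-NR, and at 366, 115 and 142 in O-NR-RC. Cdkn1b was at 49.7 and 44.2 CPM in O-WT, at 27.6, 29.4, 63.7 and 59.9 in O-NR, and at 79.2, 26.1 and 31.3 in O-NR-RC. Within O-NR and O-NR-RC the libraries fell into a low and a high set that were the same for each of these genes.

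This spread moved with the receptor-gene level. O-NR replicates 1 and 2 and O-NR-RC replicates 2 and 3 had 1.91 to 2.00 CPM per kilobase in receptor genes, and the 5 other libraries had 1.14 to 1.61. Between these sets Cdk6 (86.3 to 135 against 189.9 to 411 CPM), Ccnd2 (115 to 142 against 220.3 to 382), Ccnd3 (56.2 to 62.2 against 94.1 to 135), Ccnd1 (18.7 to 26.9 against 30.1 to 62.9), Cdkn1b (26.1 to 31.3 against 44.2 to 79.2) and Cdkn2d (6.93 to 8.09 against 12.2 to 25.8) did not overlap. Cdkn1a, Cdkn2a, Cdkn2b and Cdkn2c overlapped. The share of all genes that did not overlap between these sets was not counted, so the split cannot be read as particular to the members. Over all genes, chi-square per degree of freedom was 48.6 to 66.8 between O-NR libraries of different sets. Within a set it was 1.91 and 3.65. TMM factors were 1.24 to 1.33 in the high receptor-gene set and 0.67 to 0.97 in the low one. Both O-WT libraries were in the low receptor-gene set, so O-WT can be compared with the other groups within that set only, where Cdk6 averaged 216 CPM in 2 O-WT libraries and 246 in 2 O-NR libraries and was 411 in 1 O-NR-RC library. In the high set Cdk6 averaged 123 CPM in 2 O-NR and 93.3 in 2 O-NR-RC libraries. With the receptor-gene level as a covariate 1 member passed 0.01, Ccnd3 for O-NR-RC against O-WT (-0.26, unadjusted p = 0.00909, adjusted p = 0.81 by edgeR). Without O-NR-RC replicate 1, the only one of its group in the low set, Cdkn2d passed for the same comparison (-1.05, unadjusted p = 0.00963, adjusted p = 0.302). Whether the receptor-gene level accounts for the spread was not tested.

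**Figure D5:**
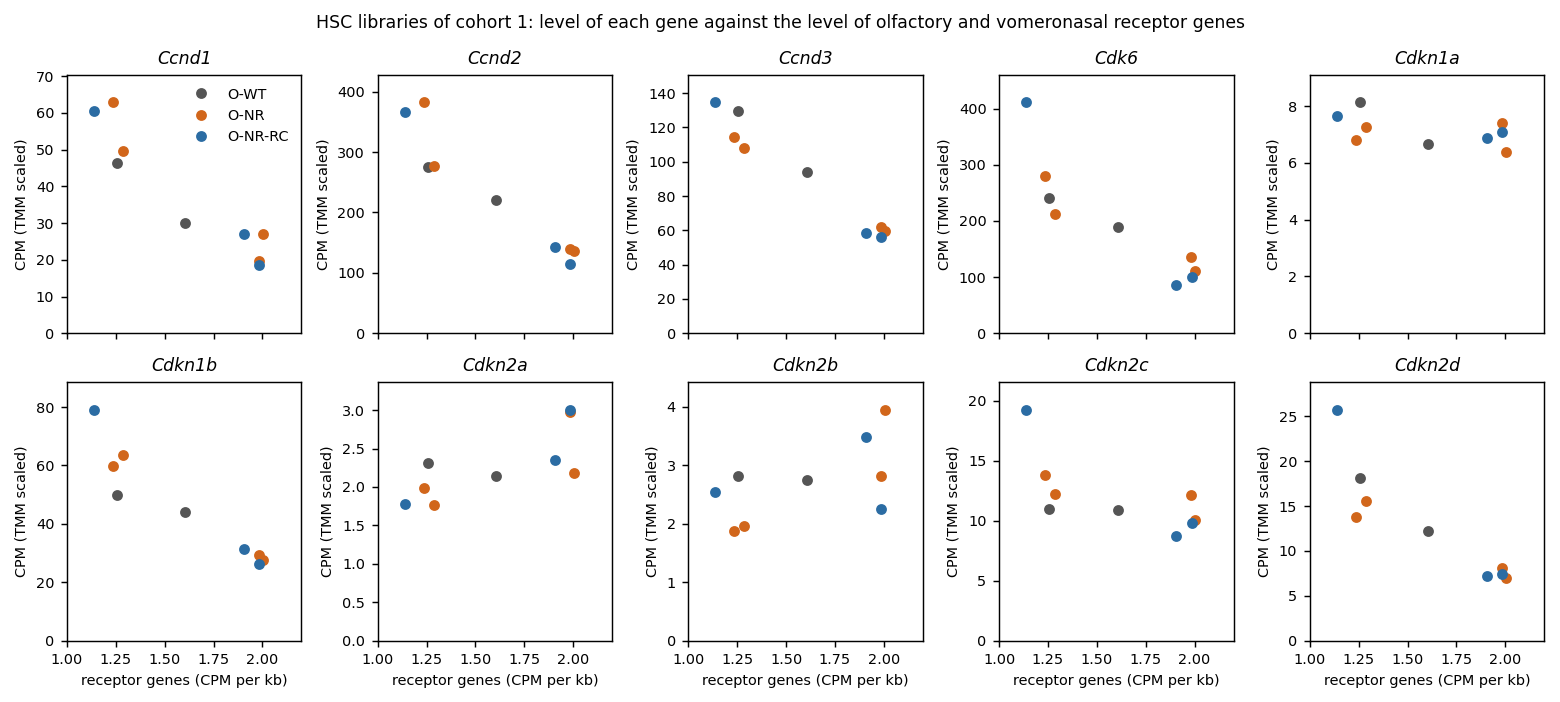
CPM (y axis) of each gene in the 9 HSC libraries of cohort 1 against the level of the receptor genes (x axis, CPM per kilobase), coloured by group. The 4 libraries at 1.91 to 2.00 on the x axis had the lowest Cdk6 (86.3 to 135), Ccnd2, Ccnd3, Ccnd1, Cdkn1b and Cdkn2d, and Cdkn1a was at 6.37 to 8.14 in all 9.

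In a fit of HSCs from both cohorts, with cohort as a term, 9 members were tested and 0 passed 0.01 by edgeR against 0.0886% of all 31596 genes, with 367 genes and no member at an unadjusted p below 0.05. Cdkn2c was at 0.38 (unadjusted p = 0.0504) and Ccnd1 at 0.39 (unadjusted p = 0.12). The NR effect did not differ between cohorts past 0.01 for any of the 9 members against 0.228% of all genes, with 603 genes and 1 member at an unadjusted p below 0.05. That member was Cdkn2d (0.83, higher in cohort 2, unadjusted p = 0.047). DESeq2 gave 0 members in both.

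The genes whose pattern over the 24 libraries of cohort 2 was most like each member were found by Pearson correlation of log2 CPM. These values describe libraries that fall into 3 cell types and are given without a test. For Cdk6 they were Mcm7 (r = 0.988), a subunit of the replicative helicase, and Topbp1 (r = 0.986), a replication and checkpoint factor. For Cdkn2c they were Blm (r = 0.976), a DNA helicase, and Melk (r = 0.973), a mitotic kinase. For Cdkn1a they were Kcng1 (r = 0.957) and Bfsp2 (r = 0.954), and for Ccnd3 Pag1 (r = 0.958) and Ptp4a3 (r = 0.955). For Cdkn1b they were Stat2 (r = 0.936) and Ccdc69 (r = 0.920), and for Cdkn2d Slc39a1 (r = 0.923) and Furin (r = 0.909). Ccnd1 was most like Zfand3 and Nod1 (r = 0.892 each), and Ccnd2 most like Tbl1x (r = 0.912) and AU041133 (r = 0.873). Among the members, Cdkn2c and Cdk6 had r = 0.925, Cdkn1b and Cdkn2c r = -0.763, and Ccnd1 and Cdk6 r = -0.717.

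The rest of the G1 and S phase machinery was set beside the members, in lists that were also chosen with earlier results of these data known. The shares of these lists are to be read against 30.3% of all genes called in O-WT between CLPs and HSCs, 46.8% between GMPs and HSCs and 62.1% between GMPs and CLPs. Of 25 proliferation genes, all 25 were higher in CLPs and in GMPs than in HSCs of O-WT mice, with a median log2 difference of 2.74 and 3.09, where all genes had 0.04 and -0.40. Rrm2, which makes deoxynucleotides, was higher by 3.96 in CLPs and 4.48 in GMPs. Between GMPs and CLPs 14 of the 25 (56%) were higher and 0 lower, a share below that of all genes. In O-NR mice all 25 were again higher in both, and between GMPs and CLPs 11 were higher and 1 lower.

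Of 10 other kinases and cyclins of G1 and S phase, 6 were higher and 1 lower in O-WT CLPs than in HSCs, and 7 higher and 1 lower in GMPs (70% and 80% called). Ccna2, the S-phase cyclin, was higher by 4.04 in CLPs (112 CPM) and by 4.27 in GMPs, and Ccne2, a partner of CDK2, by 2.29 and 2.98. Of 13 genes for turnover and partners of the inhibitors, 4 were higher and 1 lower in CLPs, and 5 higher and 1 lower in GMPs, shares of 38.5% and 46.2% that lay near those of all genes. The lower one was Cdkn1c in both, the third Cip/Kip inhibitor (p57) and a known gene of quiescent HSCs, by -4.50 in CLPs and -5.21 in GMPs. Cks2 and Cks1b, small subunits that bind CDKs, were higher by 2.85 and 2.26 in CLPs. Among the Cip/Kip genes the large decline from HSCs was thus in Cdkn1c and not in Cdkn1b.

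Of 18 pocket protein and E2F genes, 10 were higher and 3 lower in O-WT CLPs, and 11 higher and 3 lower in GMPs (72.2% and 77.8%). E2f8, an E2F repressor, was higher by 2.89 and 3.77, and Rbl2, the pocket protein p130 of resting cells, lower by -1.23 and -0.80. Of 32 upstream regulators of the members 30 were tested, with 6 higher and 11 lower in O-WT CLPs and 7 higher and 10 lower in GMPs (56.7% in each, against 30.3% and 46.8% of all genes). Mycn was lower by -4.55 and -7.17 and Cbx7, a Polycomb protein that represses Cdkn2a, by -2.37 and -2.94, while Ezh2, the Polycomb methyltransferase, was higher by 1.90 and 1.89.

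Of 30 p53 target genes beside Cdkn1a, 27 were tested, and 7 were higher and 7 lower in O-WT CLPs than in HSCs (51.9% against 30.3% of all genes). Plk2 was lower by -2.96 and Ccng1 by -0.99, while Gtse1 was higher by 2.44. Between GMPs and CLPs 6 were higher and 7 lower, a share of 48.1% that lay below the 62.1% of all genes. Trp53inp1, which fell by 3.21 on the log2 scale, and Btg2 (-1.38) were lower in GMPs, and Ccng1 (1.05) and Rps27l (1.17) higher. Of 20 secreted and structural genes used as senescence markers, 12 were tested in O-WT, with 5 higher and 1 lower in CLPs and 6 higher and 2 lower in GMPs (50% and 66.7%). They included Lmnb1, the nuclear lamin whose loss marks senescent cells, higher by 2.16 and 2.81. In cohort 2, NR gave 5 genes of these lists past an unadjusted 0.01, all with an adjusted p of 0.905 or more by edgeR. These were 1 of 131 tested in HSCs (0.763% against 0.726% of all genes), 1 of 134 in CLPs (0.746% against 0.412%) and 3 of 122 in GMPs (2.46% against 0.986%). They were Gfi1 in HSCs (-0.56), Mmp9 in CLPs (-1.31), and Ccne2 (-0.27), Myc (-0.26) and Id2 (-0.84) in GMPs.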

How the data were processed

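RNA of sorted mouse marrow cells was sequenced from a stranded total RNA kit in 33 libraries. The authors trimmed adapters with Trim Galore, mapped to the mm10 build by STAR, using Gencode gene models, and counted reads per gene with featureCounts. The deposited values are raw counts, whole numbers per gene symbol, 1 file a library. The strand and multi-mapping settings were not given in the sources used here.

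Groups came from the sample titles. Counts were fitted with edgeR 4.0.16 in R 4.3.3 (TMM scaling, quasi-likelihood test, keeping a gene if it exceeded 3 CPM in as many libraries as the smallest group holds, or more), with Benjamini-Hochberg adjustment over all genes tested. O-WT and O-NR cell types were fitted separately, each over 12 libraries, and the NR effect within each cell type, over the 9 libraries of cohort 1, over HSCs of both cohorts and, for differences between cell types, over all 24 libraries. Cell types were called at an adjusted p below 0.05 and NR and withdrawal at an unadjusted p below 0.01, one of the study's cutoffs. Levels between genes are CPM per kilobase of merged exons in Gencode M21 (GRCm38). DESeq2 1.42.0, RLE and upper quartile scaling, other filters, other sets of libraries, a replicate block, a fold limit of 1.5 and leaving out each library were the alternatives. The receptor-gene covariate was added after seeing the data. Fits were tested on simulated data, with added changes larger than the NR differences of the members and only in genes that were not low. That test does not measure the power to find smaller changes or changes in low genes.

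The members and lists were chosen with earlier results of these data known. Named beside the members were up to 2 genes per direction and list with the smallest p among those called, and the 2 genes most alike by correlation. No 2 replicates agreed within counting noise (smallest chi-square per degree of freedom 1.91).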

Additional observations from a re-analysis of the deposited data

Results flagged for a closer look

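Of 70 combinations of a member and a group of 4 libraries, 5 had 1 library far from the other 3 by Dixon's criterion, where chance alone gives about 1 in 20, or 3.5. In HSC O-WT of cohort 2, replicate 1 had the lowest Cdkn1a, at 2.39 CPM (28 reads) against 5.94 to 6.50, and the lowest Cdkn2c, at 2.48 CPM (29 reads) against 5.35 to 5.52. In the same group replicate 2 had Cdkn2a at 1.37 CPM (13 reads) against 0.256 to 0.396 (3 to 4 reads). In CLP O-NR replicate 3, Cdkn2b was at 3.32 CPM (26 reads) against 0.419 to 0.866 (4 to 8 reads). In CLP O-WT replicate 4, Ccnd1 was at 27.0 CPM against 15.5 to 16.6.

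In the test of the difference itself, the NR effect on Ccnd1 was estimated 0.95 higher on the log2 scale in HSCs than in CLPs (unadjusted p = 0.00715, adjusted p = 0.9999 by edgeR). The effect was above 0 in HSCs (0.59) and below 0 in CLPs (-0.35). CLP O-WT replicate 4, the library named above, carried part of the difference. Without that library it was 0.70 (unadjusted p = 0.0465 by edgeR). The call was lost without any 1 of 8 of the 24 libraries, that library among them. RLE scaling, DESeq2 and a filter at 1 CPM each ended it as well.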

How the results depend on the processing

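The counts of members called rested on settings as follows. Without a filter on low counts, the number called fell from 7 to 4 between CLPs and HSCs and from 4 to 2 between GMPs and HSCs of O-WT mice. Leaving out 1 library at a time gave 5 to 7 and 2 to 4 in these comparisons, the 2 without HSC O-WT replicate 4, and 2 to 4 between GMPs and CLPs of O-WT mice. In O-NR mice it gave 7 in every case for CLPs and HSCs, 5 to 7 for GMPs and HSCs and 2 to 3 for GMPs and CLPs. For NR in HSCs of cohort 2 the count rose from 0 to 1 (Ccnd1) with a filter at 1 CPM, with no filter, with all 24 libraries in one fit and with the receptor-gene covariate, which was chosen after seeing the data, and was 0 to 1 over left-out libraries. For NR in GMPs it fell from 1 (Ccnd2) to 0 with a fold limit of 1.5, with either other filter, with the receptor-gene covariate and with all 24 libraries, and was 0 to 2 over left-out libraries. For O-NR-RC against O-WT it rose from 0 to 1 with that covariate and was 0 to 1 over left-out libraries. For the difference of NR effects between HSCs and CLPs it fell from 1 to 0 with a filter at 1 CPM, RLE scaling or DESeq2, and was 0 to 1 over left-out libraries, as it was between HSCs and GMPs. The cause was not tested for any of these.

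By the rule that every pair must exceed 0.1, libraries with the same number were not taken as paired. The correlation of their deviations from the group means averaged 0.135 in HSCs, 0.031 in CLPs, 0.048 in GMPs, -0.022 and -0.025 across cell types of O-WT and O-NR mice, and 0.028 in cohort 1, with 2 of 4 pairs over 0.1 in HSCs (-0.353 to 0.650), 1 of 4 each in CLPs and GMPs, 4 and 3 of 12 across cell types, and 4 of 7 in cohort 1 (-0.823 to 0.772). With the replicate number as a block, Ccnd1 was called for NR in HSCs (0 to 1 member) and for the difference between HSCs and GMPs (0 to 1), and Cdkn2d in O-WT CLPs (adjusted p = 0.051) and Cdk6 in O-NR GMPs against CLPs (adjusted p = 0.0662) were not called. For the difference between cohorts the block gave 6 members (5158 of all genes against 72). There the cohort 1 effect came only from O-NR replicates 1 and 2, which had the high receptor-gene level.

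No called value changed sign. Over 33 called values, 638 alternatives kept the call and 93 did not. All 31 called differences between cell types kept their sign, while 34 of 62 NR and withdrawal values that were not called changed sign at least once. Under other settings the counts over all genes varied from 32 to 381 for NR in HSCs of cohort 2 (126 as reported), 71 to 336 in CLPs (82), 14 to 366 in GMPs (133), 4 to 447 in cohort 1 (16), 8 to 438 for O-NR-RC against O-NR (12), 3 to 408 against O-WT (26), 22 to 238 over both cohorts (28), and 78 to 596, 26 to 217 and 73 to 468 for differences between cell types (95, 30 and 99). Leaving out 1 library moved these counts as well, at the extremes to 61 (without O-NR replicate 3) and 249 (without O-WT replicate 1) for NR in HSCs of cohort 2, to 42 and 149 in CLPs (without O-WT replicate 2 and O-NR replicate 3), to 62 and 305 in GMPs (without O-NR replicates 3 and 4), to 5 and 484 for O-NR-RC against O-WT (without O-NR-RC replicates 3 and 1), to 7 and 135 for O-NR-RC against O-NR (without O-NR replicate 3 and O-NR-RC replicate 1), and to 4 and 47 for NR in cohort 1 (without O-NR replicate 1 and O-WT replicate 2). Over both cohorts it gave up to 87 (without O-WT replicate 2 of cohort 1), and for the difference between cohorts 17 and 264 (without O-WT replicate 1 of cohort 1 and O-NR replicate 2 of cohort 2; 72 as reported). For differences between cell types it gave up to 151 for HSCs and CLPs (without CLP O-NR replicate 1), 18 and 115 for HSCs and GMPs (without GMP O-WT replicates 3 and 4), and 51 and 267 for CLPs and GMPs (without GMP O-WT replicates 2 and 4). With the receptor-gene covariate the count for GMPs against CLPs fell from 12450 to 4286 in O-WT and from 8916 to 4054 in O-NR. Other settings moved the median of all genes by up to -0.43 and 0.33 on the log2 scale, both in O-WT GMPs. Few reads limit Cdkn2a and Cdkn2b throughout.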
